A study of Mus musculus with 354 samples.

Results

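The wells in positions A12, B12, C12 and D12 of each plate form the subject here: 24 of the 354 libraries of the series, 12 from CA-ERBB2 and 12 from Control mice, with 4 wells on each of 3 plates per genotype. The well position in the sample title defined them. That position was chosen with earlier results of these data known, their high number of genes included. The other 330 wells serve as the comparison. Read counts of the 4 wells were summed per plate, so that each genotype comparison sets 3 plate sums against 3.

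The study sorted GFP+ cells by FACS from the organ of Corti of P3 mouse pups and made 1 full-length, polyA-primed cDNA library per well with the SMART-Seq Single PLUS kit, to ask how active ERBB2 changes cochlear supporting cells. CA-ERBB2 pups carried the doxycycline-driven TetON-CAERBB2 transgene, which encodes a constitutively active form of the receptor, on top of the alleles Fgfr3-iCre and ROSA-floxed-rtTA/GFP. Control littermates carried the latter pair of alleles alone. The shared treatment text gives tamoxifen at 75 mg/kg on P0 and P1 and doxycycline at 100 mg/kg on P2 for all libraries, although the treatment label is filled in only for CA-ERBB2. Fgfr3-iCre drives recombination mostly, not solely, in supporting cells, tissue from several pups was combined before sorting, and the pups were not sexed, so that every group mixes animals.

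ERBB2 is a receptor tyrosine kinase without a known soluble ligand of its own, and it normally signals as the partner of EGFR, ERBB3 or ERBB4, which bind the EGF and neuregulin ligands. Downstream, the RAS and ERK cascade switches on its own inhibitors, among them the dual-specificity phosphatases and the Sprouty proteins. Supporting cells surround the hair cells of the cochlea and, in newborn mice, keep some ability to divide and to form hair cells.

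Wells A12 to D12 held far more kinds of transcript than the rest of the plate. At least 1 count was recorded for between 3520 and 19522 genes per well, with a median of 15538, against a median of 3244 and a range of 152 to 15753 in the other wells. Read depth did not separate them in the same way: totals ran from about 2779720 to about 4302490 counts in the 24 wells, with a median of about 3291400, and had a median of 2786360 in the others. With every well thinned to 100000 counts, the median was 10688.5 genes in wells A12 to D12 and 2898 in the 295 other wells deep enough to be thinned. One of the other wells passed the median of the 24, while 158 passed the lowest of the 24 and 49 the second lowest. Among the other wells, plate 1 had medians of 10095 genes in CA-ERBB2 and 8434 in Control. Their medians on the remaining plates lay between 1216 and 2916. GEO's labels describe all wells alike, as single supporting cells.

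**Figure D1:**
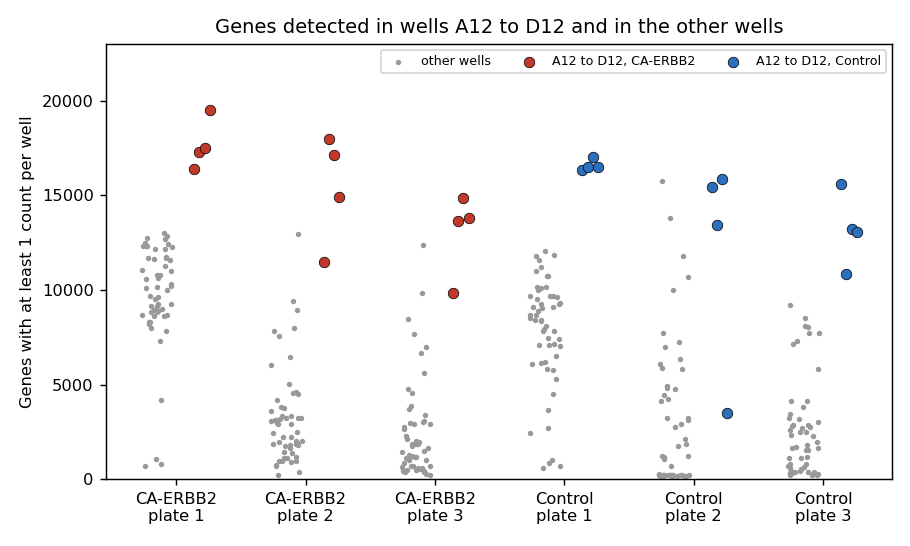
Genes with at least 1 count (vertical axis) in each well, by genotype and plate (horizontal axis); grey points are the other 55 wells of each plate and coloured points are wells A12 to D12. Wells A12 to D12 lie above most grey points, and D12 of Control plate 2, with 3520 genes, is the lowest of the 24.

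Transcripts of both sexes occurred together in most of these wells. Xist, the RNA that coats the inactive X chromosome of females, and at least 1 of the Y-linked genes Ddx3y, Eif2s3y, Kdm5d and Uty each reached 10 CPM, the count scaled to the library total, in 19 of the 24 wells, or 79.2%, and in 5 of the 330 other wells, or 1.52%. The 19 were 10 CA-ERBB2 and 9 Control wells. Of the remaining 5 wells, 3 passed that level for Xist alone and 2 for Y genes alone.

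**Figure D2:**
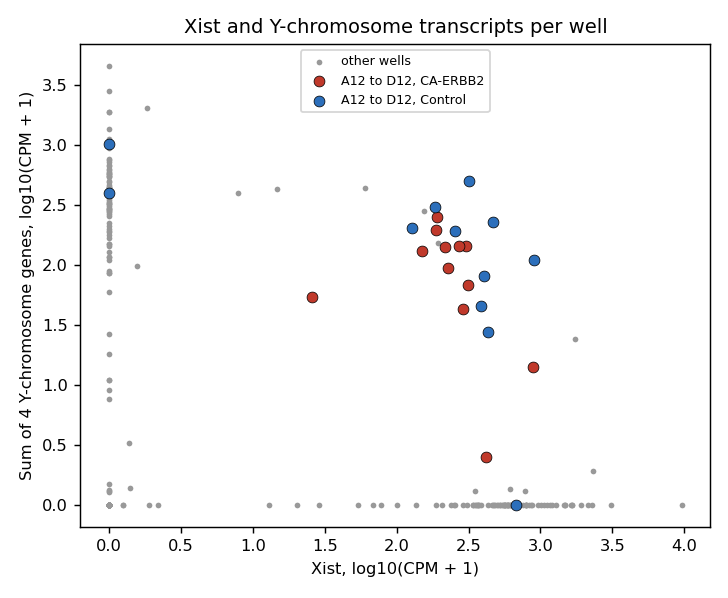
Level of Xist (horizontal axis) against the summed level of 4 Y-chromosome genes (vertical axis), both as log10(CPM + 1), for every well; red and blue points are wells A12 to D12 and grey points the others. The grey points lie mostly along either axis, whereas most coloured points hold both kinds of transcript. In 19 of the 24 wells Xist and a single Y gene each reach 10 CPM.

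Genes that mark several cell types were read side by side in the same wells. Of 9 marker lists for cell types of the cochlea and its surroundings, a median of 5 per well had at least 3 members at 10 CPM or more, with a range of 1 to 7, against a median of 1 and a range of 0 to 5 in the other wells. Otic mesenchyme passed this level in 22 of the 24 wells, glia in 19, epithelium in 18, neurons in 15, osteoblasts in 14, macrophages in 10, endothelium in 6, erythroid cells in 3 and melanocytes in 2. The epithelial list, which fits the labelled tissue, passed in 75% of these wells and 17.6% of the others.

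High marker sums were those of 1 to 3 wells of a plate and occurred in both genotypes. The summed macrophage markers of the plate sums were 515, 533 and 3618 CPM in CA-ERBB2 and 47.6, 6522 and 74.8 CPM in Control, with a well peak of 12644 CPM in CA-ERBB2 plate 3 A12. On Control plate 2 they reached 5482 CPM in A12, 5538 CPM in B12 and 11421 CPM in D12. The erythroid sum peaked at 14805 CPM in CA-ERBB2 plate 3 D12 and the glial sum at 17842 CPM in CA-ERBB2 plate 2 B12. Mesenchyme markers were spread more evenly, at 3198, 6607 and 4095 CPM in CA-ERBB2 and 4232, 6168 and 2252 CPM in Control. In each of these lists the genotypes overlapped, and no marker gene passed the test described further on.

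**Figure D3:**
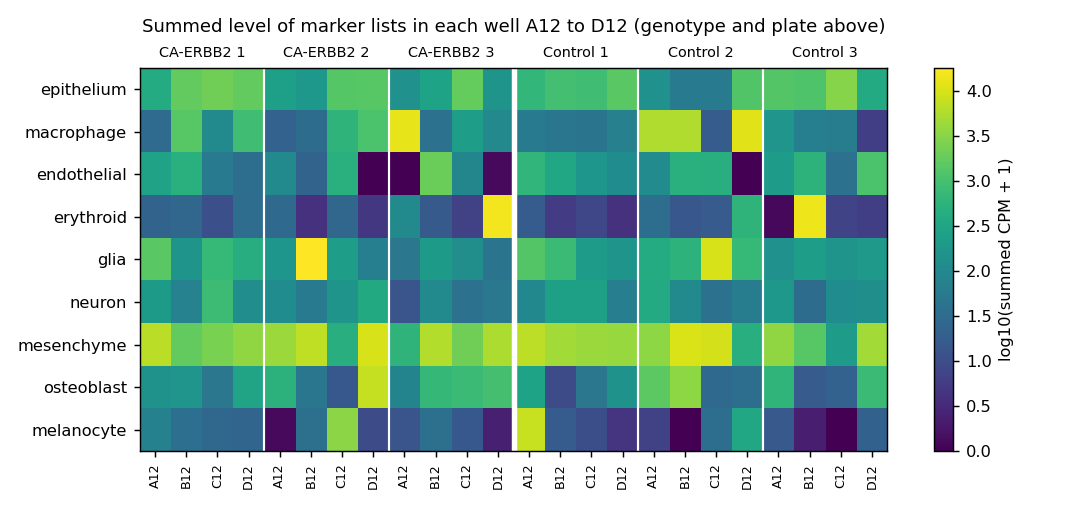
Summed level of 9 marker lists (rows), as log10(summed CPM + 1), in each of the 24 wells (columns), grouped by genotype and plate. Macrophage markers are bright in A12 of CA-ERBB2 plate 3 and in A12, B12 and D12 of Control plate 2, and mesenchyme markers are bright across most columns.

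D12 of Control plate 2 stood apart from the other 23 wells. Its log2(CPM + 1) profile had a median Pearson correlation of 0.31 with the others, computed across genes read in either well, whereas the other wells had medians between 0.55 and 0.81. The myeloid gene Tyrobp was at 2033 CPM there. Of the epithelial markers, Epcam was at 0 CPM there and Krt8 at 989.9 CPM, the highest of the 24 wells, and their sum of 1265 CPM was above the median of 907 CPM over the 24. Likeness otherwise did not follow the plate: well pairs of 1 plate had a median correlation of 0.68, pairs from different plates of 1 genotype 0.69 and pairs across genotypes 0.69, as a description across genes that are not independent. Same-plate pairs of other wells had a median of 0.01. Those wells had a median of 3244 genes, and genes read in only 1 well of a pair enter the correlation. The value is therefore not a like-for-like match for 0.68.

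The summary measures of the wells did not differ between genotypes beyond the spread of the plates. Plate means of genes detected were 17680, 15378 and 13037 in CA-ERBB2 and 16596, 12074 and 13191 in Control (exact permutation test over plates, two-sided p = 0.6, n = 3 against 3; the smallest p this design allows is 0.1). Mitochondrial transcripts took 4.21%, 11.3% and 4.11% of the counts in CA-ERBB2 and 4.34%, 4.03% and 4.42% in Control (exact permutation p = 0.8, n = 3 plates each). The 50 highest genes took 26.2% ± 7.82 of the counts in CA-ERBB2 and 19.2% ± 0.345 in Control (SD, n = 3 plates; exact permutation p = 0.4), with the CA-ERBB2 plates spread over a wider range.

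Across genes, the genotype comparison asked which transcripts differed between CA-ERBB2 and Control plate sums. Of 16841 genes with enough counts to test, 0 (0%) passed edgeR's quasi-likelihood test at a Benjamini-Hochberg adjusted p under 0.05 with a log2 fold change beyond 1. At an unadjusted p under 0.05, 386 genes (2.29%) were higher and 314 (1.86%) lower in CA-ERBB2, together 4.16% of those tested. DESeq2 on the same sums called 103 genes higher (0.513%) and 34 lower (0.169%) of the 20093 that it gave an adjusted p, and limma with the wells weighted equally called 4 genes. The values of all 3 CA-ERBB2 plates lay above all 3 Control plates for 1006 genes (5.97%) and below them for 864 (5.13%). Leaving out D12 of Control plate 2, or keeping only the 19 wells with transcripts of both sexes, also gave 0 calls by edgeR.

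Erbb2, the gene that the transgene encodes, comes first as a check of the labels, and it was also the gene with the smallest p of the comparison. On the scale of trimmed-mean normalised CPM of the plate sums, Erbb2 stood at 109, 81.1 and 148 on the CA-ERBB2 plates and at 11.6, 14.9 and 10.7 on the Control plates. The groups did not overlap, and every library sum had the order that its label gives. The fitted difference was 9.11-fold (log2 3.19 ± 0.37 SE, unadjusted p = 4.63e-05, edgeR adjusted p = 0.78), and DESeq2 gave it an adjusted p of 5.78e-10. Well by well, Erbb2 ranged from 0 to 341 CPM with a median of 70.8 in the 12 CA-ERBB2 wells and from 0 to 37.6 CPM with a median of 14.2 in the 12 Control wells, with counts in 11 and 9 wells. Erbb2 lies on chromosome 11 at 98412470 to 98437716 on the plus strand (GRCm38, Gencode M21), and its counts cannot be divided here into reads of the endogenous gene and of the transgene.

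The promoters printed here belong to Serpinb2, Il12a and Gcnt4, which are 3 of the genes read in CA-ERBB2 wells A12 to D12 and in no Control well of that set. Each line gives the 250 bases before 1 transcription start from RefSeq (build GRCm38.p6, plus strand, 5′ to 3′), and capitals mark matches to the AP-1 motif TGANTCA on either strand. Serpinb2 is at chr1:107511173-107511422, Il12a at chr3:68690394-68690643 and Gcnt4 at chr13:96924463-96924712.
Serpinb2: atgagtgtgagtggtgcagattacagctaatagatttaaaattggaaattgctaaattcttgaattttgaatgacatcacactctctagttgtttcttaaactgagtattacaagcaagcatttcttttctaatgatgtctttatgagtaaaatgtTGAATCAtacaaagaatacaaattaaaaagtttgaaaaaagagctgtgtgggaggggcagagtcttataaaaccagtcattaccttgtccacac
Il12a: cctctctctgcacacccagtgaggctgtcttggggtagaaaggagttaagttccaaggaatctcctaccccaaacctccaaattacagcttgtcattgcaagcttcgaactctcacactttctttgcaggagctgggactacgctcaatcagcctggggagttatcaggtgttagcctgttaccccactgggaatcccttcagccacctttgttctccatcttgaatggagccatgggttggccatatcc
Gcnt4: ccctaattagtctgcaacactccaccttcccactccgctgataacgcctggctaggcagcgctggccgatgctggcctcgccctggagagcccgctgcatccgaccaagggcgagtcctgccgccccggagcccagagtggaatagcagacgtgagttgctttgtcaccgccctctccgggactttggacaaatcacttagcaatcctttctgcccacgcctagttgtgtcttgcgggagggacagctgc
The Serpinb2 window held 1 match, beginning 94 bases before the start, and the Il12a and Gcnt4 windows held 0, although the window of another annotated Gcnt4 start held 1. Among 32851 RefSeq promoters cut to the same length, 6.75% held TGANTCA. The ETS motif CCGGAAG, searched on both strands, was in 6.91% of all promoters and in none of these 3 windows. F2rl3, Il20ra and Slc10a4, also at 0 in Control, were searched but are not printed. The Il20ra window held 1 AP-1 and 1 ETS match, and the windows of F2rl3 and Slc10a4 held none. A match of letters is no evidence of binding, and an absent match says nothing of the factor.

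Serpinb2, the plasminogen activator inhibitor PAI-2, was on or off from well to well. It was read in 6 of 12 CA-ERBB2 wells and 0 of 12 Control wells, with a highest well of 2635 CPM in B12 of plate 1. The CA-ERBB2 plate sums held 530, 54.7 and 143 normalised CPM and the Control sums 0, 0 and 0, which makes CA-ERBB2 at least 3816-fold higher when Control is set at the 3 counts that a count of 0 allows over the group. Every CA-ERBB2 plate was above every Control plate, but the sums of plates 1 and 2 each came from 1 well, whereas all 4 wells of plate 3 held the transcript. The gene had an unadjusted p of 0.000264 and an edgeR adjusted p of 0.992. Among the other wells it was read in 12 of CA-ERBB2 and 1 of Control, or 3.94% in all.

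Il12a, the p35 subunit of the cytokine interleukin-12, was read in 8 of 12 CA-ERBB2 wells and in 0 of 12 Control wells. Its normalised CPM in the plate sums was 19.4, 79.2 and 238 in CA-ERBB2 and 0 in each Control sum, at least 1466-fold higher by the same rule (unadjusted p = 0.00044, edgeR adjusted p = 0.992). Gcnt4, which adds branching sugars to O-linked glycans, was likewise read in 8 and 0 wells. Its plate sums were 11.6, 21.5 and 33.3 normalised CPM against 0, 0 and 0, at least 296-fold higher (unadjusted p = 0.000159, edgeR adjusted p = 0.89). For both genes all CA-ERBB2 plates had counts, and 4 of the 12 CA-ERBB2 wells had none. In the other wells, Il12a was read in 21 CA-ERBB2 and 0 Control wells and Gcnt4 in 22 and 2.

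The fixed naming rule added 6 more genes with higher CA-ERBB2 plates, none of which passed the test. Klrb1a, a lectin-like receptor known from natural killer cells, was read in 10 CA-ERBB2 wells and 1 Control well. Its ratio of counts was 1064 (95% exact interval 191 to 42081, counting error only), and near-identical neighbours of the Klrb1 family make its counts uncertain. Tspan32, a tetraspanin of blood cells, was read in 8 and 1 wells, with a ratio of 310 (85.4 to 2565). Hopxos, which runs antisense to the homeodomain gene Hopx, was read in 7 and 1 wells, and since the kit's strand marking is not given, reads of Hopx and Hopxos may not be separable. Bcl6b, a transcriptional repressor, and Slc10a4, a vesicular transporter, rested on 4 and 3 CA-ERBB2 wells and 0 Control wells. Col6a2, a chain of the matrix protein collagen VI, differed in level and not in presence, at 131, 410 and 549 normalised CPM in CA-ERBB2 and 44.5, 40.1 and 43.0 in Control (log2 3.10 ± 0.54 SE, unadjusted p = 0.000586, edgeR adjusted p = 0.992).

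On the Control side the rule named 10 genes, and again none passed. Wif1, a secreted inhibitor of Wnt ligands, stood at 19.4, 3.32 and 5.42 normalised CPM on the CA-ERBB2 plates and at 96.8, 115 and 84.4 on the Control plates. Its fitted log2 fold change was -3.39 ± 0.70 SE (unadjusted p = 0.00161, edgeR adjusted p = 0.992), and in the other wells it was -1.97. Wif1 was read in 7 CA-ERBB2 and 10 Control wells, so the groups differed in level more than in presence, with well medians of 2.24 and 77.6 CPM. Chst13, a chondroitin sulfotransferase, was read in 0 CA-ERBB2 and 6 Control wells and was at least 105-fold higher in Control (unadjusted p = 0.0015). Aph1a, a subunit of the gamma-secretase that cuts Notch, had a log2 fold change of -1.77 ± 0.38 SE. Olfm1, Acot1, Anxa4, Raph1 and Gstm1 had log2 fold changes between -1.77 and -1.24 and were read in at least 11 wells of either genotype, and with wells weighted equally (limma) the value of Anxa4 was 0.00040. Gm16793 and Gm43658 were sparse, the latter in 0 CA-ERBB2 and 4 Control wells. Acot1 and Gstm1 belong to families of close copies, so their counts are uncertain.

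**Figure D4:**
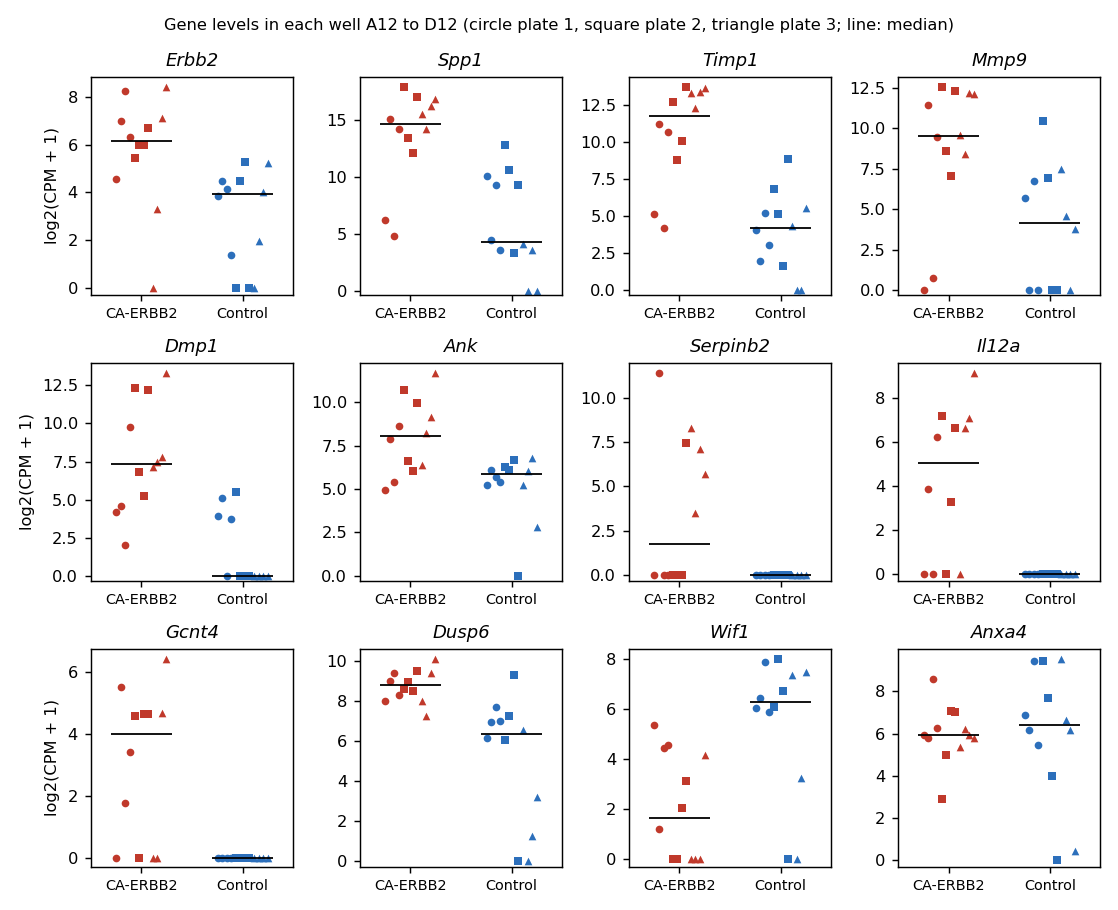
Level of 12 genes as log2(CPM + 1) (vertical axes) in each of the 12 CA-ERBB2 (red) and 12 Control (blue) wells A12 to D12; marker shapes give the plate and lines the median over wells. Serpinb2, Il12a and Gcnt4 are at 0 in all Control wells, Erbb2, Spp1 and Timp1 have higher medians in CA-ERBB2, and Wif1 has the higher median in Control.

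Presence and absence over wells gave unequal counts for the genotypes. Of the 18465 genes read in at least 6 of the 24 wells, 28 were read in at least 6 CA-ERBB2 wells and no Control well, and 1, Chst13, the other way round. At 8 wells or more, the genes on the CA-ERBB2 side were Il12a, Gcnt4, F2rl3, Il20ra, Gm48597 and Gm49249, against 0 genes on the Control side, and these were chosen after their values were seen. F2rl3 is a thrombin receptor, and Il20ra a receptor chain of the interleukin-20 family. After thinning all 24 wells to about 2779720 counts the numbers were 28 and 2. These counts are a description without a test, and D12 of Control plate 2, with 3520 genes, is among the Control wells. In the other wells, F2rl3 was read in 14 CA-ERBB2 and 0 Control wells, Gm48597 in 21 and 1, Gm49249 in 13 and 6 and Il20ra in 3 and 2. Of the 28 genes, some leaned to CA-ERBB2 there, such as Fetub in 15 and 0. Others leaned to Control, such as Btk in 1 and 7 and Gm13094 in 19 and 21.

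The genes that the study named as induced in CA-ERBB2 cells were high in these wells as well, but the study chose them on these samples, so the count is no independent evidence. The study also measured these genes by RT-qPCR on GFP+ cells sorted into tubes, and reported them as up-regulated in CA-ERBB2. Of 10 genes, all tested, 10 had a positive log2 fold change with a median of 3.9, beside a median of -0.04 over all genes tested. Il12a, at 0 in Control, stays above the median at its bound. Of the 10 genes, 7 were higher at an unadjusted p under 0.05, beside 2.29% of all genes tested. The edgeR test passed 0, and DESeq2 called 6, all higher, beside 0.513% of the genes that it gave an adjusted p.

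Spp1, the secreted matrix protein osteopontin, led the group by its level. The 12 CA-ERBB2 wells ranged from 28.4 to 238777 CPM with a median of 27197, and the 12 Control wells from 0 to 7292 CPM with a median of 19.2. The plate sums stood at 11440, 124930 and 76880 normalised CPM in CA-ERBB2 and at 390, 2634 and 7.13 in Control, with no overlap of plates (log2 6.14 ± 1.98 SE, unadjusted p = 0.0163, edgeR adjusted p = 0.992). The wells overlapped: A12 and C12 of CA-ERBB2 plate 1 held less than 100 CPM, and A12 of Control plate 2 held 7292. Without Control plate 2, the fitted value was 8.45. Control plate 2 also had the highest macrophage marker sum of the 6 plates, and macrophages are known to express osteopontin. Of its wells rich in macrophage markers, A12 held 7292, B12 1544 and D12 639 CPM of Spp1, and D12 had the highest marker sum. C12, where those markers were low, held 8.98 CPM. On Control plate 1, A12 held 1093 and C12 632 CPM of Spp1, with macrophage marker sums of 58.2 and 42.7 CPM. The part of those cells in the Spp1 values was not tested.

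Timp1, an inhibitor of matrix metalloproteinases, was read in 12 CA-ERBB2 and 10 Control wells. Its plate sums were 883, 6914 and 11374 normalised CPM against 13.5, 185 and 14.6 (log2 6.49 ± 1.53 SE, unadjusted p = 0.00348, edgeR adjusted p = 0.992), and the log2 value was 8.80 without Control plate 2 and 8.01 without its well D12. Dmp1, which belongs with Spp1 to the SIBLING glycoproteins of mineralised matrix, was read in all 12 CA-ERBB2 wells and in 4 Control wells. Its sums were 210, 3163 and 3273 against 13.5, 12.4 and 0 normalised CPM (log2 8.0 ± 1.97 SE, unadjusted p = 0.00432). Mmp9, a gelatinase, was at 714, 3682 and 3003 normalised CPM against 34, 412 and 59.6 (log2 3.87 ± 1.11 SE, unadjusted p = 0.00954), with a log2 value of 5.71 without Control plate 2. Ank, a transporter that exports pyrophosphate, was at 153, 906 and 1292 against 43.0, 63.8 and 47.1 (log2 3.93 ± 0.76 SE, unadjusted p = 0.00112). Plates did not overlap for any of these 4 genes, and edgeR's adjusted p was 0.992 for each.

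The remaining members of that group did not separate by plate. Cd63, a tetraspanin, had an unadjusted p of 0.0258 with 1 Control plate above 1 CA-ERBB2 plate, at 1311 against 1077 normalised CPM. Ptgis, the prostacyclin synthase, had an unadjusted p of 0.0654. Bglap and Bglap2, the osteocalcin genes, share near-identical sequence and had log2 values of 1.09 and 0.88 with SEs of 1.97 and 1.92. The value of Bglap turned to -1.51 without CA-ERBB2 plate 3 and was 5.05 without Control plate 2. The osteoblast marker sums were 147, 2618 and 745 CPM in CA-ERBB2 and 110, 1379 and 337 in Control. That marker list includes Bglap and Bglap2, so the sums are no independent measure beside these genes. The part of osteoblasts in the result was not tested.

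Of the SIBLING family and its receptors, 8 of 10 genes could be tested and their median log2 fold change was 0.50. The ligands Mepe and Dspp were read in 2 and 3 CA-ERBB2 wells and 0 Control wells, with nearly all Mepe counts in D12 of plate 2, at 4050 CPM. The ligand Ibsp was read in both genotypes, with well medians of 10.9 and 8.37 CPM and highest wells of 5666 and 1110 CPM. Its highest CA-ERBB2 well was that same D12. There the osteoblast marker sum, which includes Ibsp, was the highest of the 24 wells at 7608 CPM. The part of osteoblasts in these values was not tested. The receptor Cd44 stood at 45.2, 151 and 68.2 normalised CPM in CA-ERBB2 and 134, 21.7 and 43.5 in Control. Its plates overlapped (log2 0.41 ± 0.73 SE, unadjusted p = 0.595), and Itgav, Itgb3 and Itgb5 overlapped as well. Itgb1, the shared integrin beta 1 chain, had non-overlapping plates with a small difference of 0.34 ± 0.28 on the log2 scale.

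The list of ERBB receptors and ligands held 15 genes, Erbb2 among them, of which 12 were tested, with a median of 0.13. Erbb2, Areg and Nrg2 were the 3 higher and Egfr the 1 lower at an unadjusted p under 0.05. Over all genes tested, 2.29% were higher and 1.86% lower at that level. Erbb2, described above, is counted again here. Egfr, the EGF receptor, stood at 28.6, 22.3 and 16.9 normalised CPM against 43.6, 61.7 and 31.1 (log2 -1.0 ± 0.41 SE, unadjusted p = 0.0426, edgeR adjusted p = 0.992). The ligand Areg was read in 4 CA-ERBB2 wells and 1 Control well, with a ratio of counts of 78.3 (95% exact interval 26.4 to 383). Erbb3 and Erbb4, the neuregulin receptors, overlapped between genotypes, as did Tgfa, Hbegf and Nrg4.

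Of the feedback genes of the ERK cascade, none passed the test. Of 18 genes, all tested, 14 were positive with a median of 0.37. At an unadjusted p under 0.05, 4 were higher and 0 lower, beside 2.29% and 1.86% of all genes tested. Dusp6, a phosphatase that inactivates ERK, stood at 371, 595 and 647 normalised CPM against 115, 213 and 29.0 (log2 2.18 ± 0.68 SE, unadjusted p = 0.0139, edgeR adjusted p = 0.992). Dusp5, Spry1 and Spry4 were the other genes of that count, with log2 values of 1.61, 1.23 and 2.90. Egr1, Myc, Etv1 and Etv5 had overlapping plates with log2 values between -0.54 and 0.27, so that the list held both signs.

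In the matrix proteolysis list, 16 of 20 genes were tested, and the median was 0.31. At an unadjusted p under 0.05, 6 were higher and 0 lower, beside 2.29% and 1.86% of all genes tested. The 6 higher genes were Serpinb2, Timp1, Mmp9, Mmp14, Serpine2 and Plau. Timp1 and Mmp9 are among the genes that the study chose on these samples, and Serpinb2 was named above by its p. The count is thus no independent evidence. Plau, the urokinase that PAI-2 inhibits, was read in 4 CA-ERBB2 and 0 Control wells and was at least 41.0-fold higher (unadjusted p = 0.00504, edgeR adjusted p = 0.992). Its receptor Plaur was read in 9 and 2 wells, with plates of 5.90, 14.5 and 19.5 normalised CPM against 0.333, 3.76 and 0 (unadjusted p = 0.0746). Both were rare in the other wells, read in 2.73% and 1.82% of them.

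The cell cycle list held 22 tested genes with a median of 0.62. At an unadjusted p under 0.05, 5 were higher and 0 lower, beside 2.29% and 1.86% of all genes tested. The D cyclins Ccnd2 and Ccnd3, the replication genes Pcna and Mcm4 and the CDK inhibitor Cdkn2b made up this count. Cdkn2b stood at 45.9, 15.6 and 38.9 normalised CPM against 3.39, 0.164 and 0.0685, in 11 and 3 wells (log2 4.77 ± 1.39 SE, unadjusted p = 0.0104, edgeR adjusted p = 0.992). The mitotic genes Mki67, Top2a, Ccnb1 and Aurkb had log2 values of -0.63, -0.25, -1.87 and -0.08, and their plates overlapped. None of the cycle genes passed the edgeR test.

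Supporting cell identity genes were read in nearly all of these wells. A median of 19 of 20 such genes per CA-ERBB2 well and 18 per Control well had a count, against 4 in the other wells of either genotype. Between genotypes, 3 of 20 had a positive log2 fold change and the median was -0.53. At an unadjusted p under 0.05, 1 gene (Cryab) was higher and 1 (Slc1a3) lower, beside 2.29% and 1.86% of all genes tested. Fgfr3, the receptor gene whose regulatory sequence drives the Cre, stood at 191, 86.0 and 62.2 normalised CPM against 256, 29.2 and 416, with overlap. Of the Notch list 1 of 17 tested genes was positive, 0 genes had an unadjusted p under 0.05 and the median was -0.49. Fewer cells of a type and less RNA per cell cannot be told apart in such sums.

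The sum of the hair cell genes was 1213, 1707 and 158 normalised CPM in CA-ERBB2 and 1188, 2110 and 1402 in Control, so that CA-ERBB2 plate 3 alone was low. Atoh1, Pou4f3, Gfi1 and Lhx3, the transcription factors of hair cells, had 0 counts on that plate and counts on the other 5. The list median was -0.76, with 1 of 17 tested genes, Cib2, lower at an unadjusted p under 0.05, beside 1.86% of all genes tested. All Control plates lay above for 4 genes, beside 5.13% of all genes tested. Without the A12 wells the log2 fold change of Cib2, -1.38, became 0.02. For genes of the greater epithelial ridge, the medial cell layer of the newborn duct, the median was -0.21 and 1 of 20, Kazald1, was lower at that level.

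Among laminins and keratins 1 of 15 tested genes, the surface protein gene Plet1, had an unadjusted p under 0.05, at 102, 54.7 and 66.5 normalised CPM against 6.52, 7.93 and 0.96 (log2 3.85 ± 0.78 SE, unadjusted p = 0.00147, edgeR adjusted p = 0.992). In the list of cytokines and developmental factors, 17 of 24 were tested. At an unadjusted p under 0.05, 3 were higher, beside 2.29% of all genes tested: Il12a, Il2rg and Il1b. Il12a was also counted among the study's genes above. Il2rg, the shared chain of several interleukin receptors, was read in 10 CA-ERBB2 wells and 3 Control wells. Il1b, a cytokine of myeloid cells, stood at 6.44, 8.83 and 246 normalised CPM in CA-ERBB2 and 0 in each Control sum, from 3 wells. The highest value was on CA-ERBB2 plate 3, where the macrophage marker sum was 3618 CPM, whose part in the result was not tested. The transcription factor gene Helt was read in 6 and the ligand gene Wnt10a in 5 CA-ERBB2 wells, and both in 0 Control wells.

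**Figure D5:**
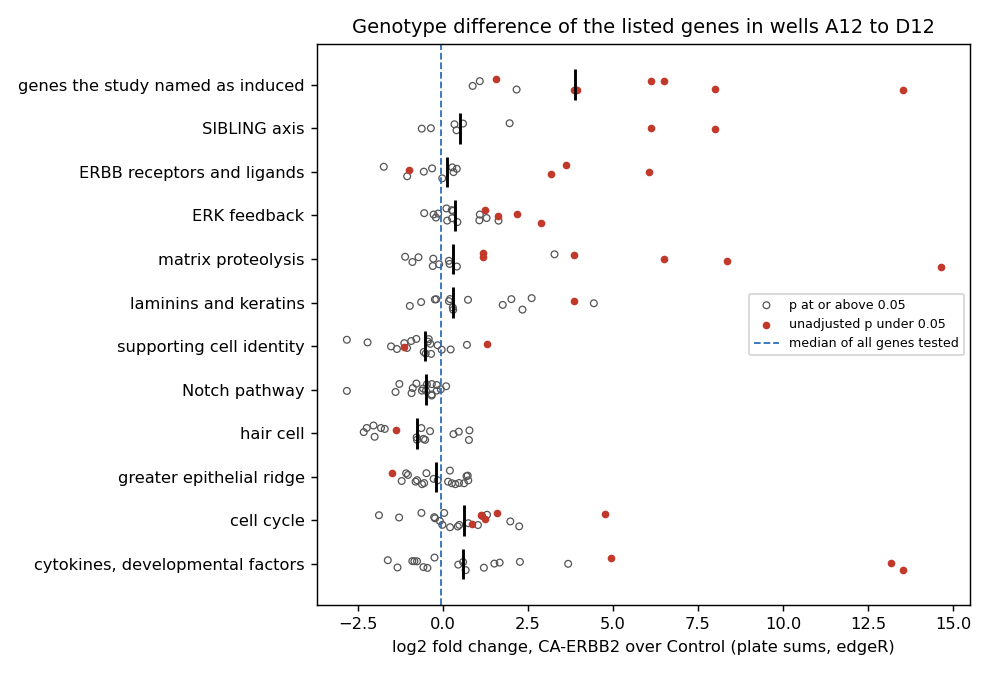
Log2 fold change of CA-ERBB2 over Control plate sums (horizontal axis) for the tested genes of 12 lists (rows); filled points have an unadjusted p under 0.05, black bars are list medians and the dashed line is the median of all 16841 genes tested, -0.04. The bar of the genes that the study named as induced is at 3.9, and the bars of the other lists lie between -0.76 and 0.67.

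Genes seldom read in the other wells were the particular interest of these wells. They are called low-expressed by how few wells read them, not by their level. One member of the class, Ccl12, stood at 1686 normalised CPM on Control plate 2. A class of 168 genes had a count in at least 12 of the 24 wells and in less than 5% of the other 330. Its members were read in a median of 13 of the 24 wells and in a median of 4.24% of the other wells, with a lowest share of 1.82%, values that the definition itself set. Among the 166 other wells at least as deep as the shallowest of the 24, the class was read in a median of 6.02%, and 48 of its 168 genes were still under 5%. Of 166 members with a Gencode annotation, 66.3% were protein coding and 31.3% long noncoding, against 82.2% and 14.4% of all genes tested, and the median exonic length was 2574.5 bases against 3973.

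The class joined genes of many cell types. From the lists, it held the Notch ligand Dll3, the Notch-modifying glycosyltransferase Mfng, the ERK phosphatase Dusp4 and the macrophage genes C1qa and Aif1. Dll3 and Mfng were each read in 6 CA-ERBB2 and 6 Control wells, and Dusp4 in 7 and 5. Further members, chosen after their values were seen, included the myeloid genes Spi1, Cd74, Fcgr3 and P2ry12, each in 8 CA-ERBB2 wells and 4 or 6 Control wells. Plate sums overlapped for each of them, with log2 values of 2.23, -0.24, -0.27 and 3.16. Other members were even or went the other way, with Ccl12 in 6 and 6 wells, Lair1 in 6 and 7 and Apoc1 in 4 and 8. The potassium channel subunit gene Kcne1 was read in 10 and 7. The mitotic kinase gene Plk1 was read in 10 and 2 wells, but its plate sums overlapped, at 1.88, 6.17 and 9.71 normalised CPM against 9.92, 16.2 and 0 (log2 -0.56, unadjusted p = 0.735).

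Between genotypes, the shares of this class past each level were small. Of the 165 members tested, 0 (0%) passed edgeR's test, 3 (against 2.29% of all genes) were higher and 2 (against 1.86%) lower in CA-ERBB2 at an unadjusted p under 0.05, and DESeq2 called 1. Plates did not overlap for 8 members in either direction, beside 5.97% and 5.13% of all genes, and the median log2 fold change was 0.00 (-0.005). The class was defined with the genotypes pooled, and the rule did not ask for reads in both. A gene could thus enter mostly through the wells of 1 genotype. Lgals7 was read in 11 CA-ERBB2 wells and 1 Control well and Mirg in 11 and 2, whereas Apoc1 leaned to Control, with 4 and 8. Membership in the class is therefore not independent of genotype for such genes.

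The named members of the class were few and sparse. Lgals7, which encodes galectin-7 of stratified epithelia, was read in 11 CA-ERBB2 wells and 1 Control well, and in 3.33% of the other wells. Its plate sums were 1.27, 7.03 and 49.7 normalised CPM against 0, 0 and 0.754 (log2 6.19 ± 2.03 SE, unadjusted p = 0.0175, edgeR adjusted p = 0.992). Mirg, a long noncoding RNA, was read in 11 and 2 wells (log2 4.05 ± 1.59 SE, unadjusted p = 0.0367). Notum, an enzyme that inactivates Wnt ligands, had the lower side, at 2.55, 1.52 and 1.63 against 5.72, 3.52 and 106 normalised CPM (log2 -4.32 ± 1.37 SE, unadjusted p = 0.015), where 1 Control plate carried most of the counts.

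The other genes that the rule named in this class had unadjusted p above 0.05. Higher on every CA-ERBB2 plate were 1700066B19Rik, C030034L19Rik, the interferon-induced gene Oasl2, Ropn1l, the protocadherin gene Pcdhb11 and AA414768, with log2 values of 1.68 to 2.33. Lower on every CA-ERBB2 plate were the cytokine gene Il15, Prcd, Tmem40, Gm37349, Gm43289, Gm26981 and BC046401, with log2 values of -1.98 to -1.19. Il15 stood at 5.03, 1.80 and 1.12 normalised CPM against 6.06, 14.3 and 9.46 (unadjusted p = 0.0599).

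Wells A12 to D12 were last set against the other wells of their own plates, in sums with the plate as a block. Of 22083 genes tested, 0 (0%) passed edgeR's test in either direction and 983 (4.45%) had an unadjusted p under 0.05, while DESeq2 called 146 higher and 73 lower. The difference of the genotype effect between both sets of wells was likewise called for 0 genes (0%) by edgeR, with 434 (1.97%) at an unadjusted p under 0.05, and for 155 higher and 41 lower by DESeq2. These counts do not show that the levels were alike.

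Side by side, the genotype differences of Erbb2 and the matrix genes had the same sign in both sets of wells. Erbb2 had a log2 fold change of 3.19 in wells A12 to D12 and 2.89 in the other wells, with 0.91 as the unadjusted p of the difference. Spp1 had 6.14 and 7.34 (p of the difference 0.69), Timp1 6.49 and 7.18 (0.84), Dmp1 8.0 and 6.98 (0.74) and Mmp9 3.87 and 5.39 (0.43), all from edgeR with adjusted p of 1 for the difference. Plaur had opposite signs, at 3.29 and -3.69, with an unadjusted p of 0.0094 for the difference that did not pass adjustment. The wells of a plate come from the same sorted cells, so that both sets share animals.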

How the data were processed

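The deposited values were raw read counts per gene, 1 library per well. Per the labels and the study's methods, the authors made these counts with bcl2fastq 2.19.1, adapter trimming, STAR 2.7.6a on GRCm38 and featureCounts of Subread 2.0.1 set to reverse-strand reads, without molecular identifiers, so that reads are not independent molecules and intervals cover counting error only. Whether the kit marks strand is not given in the sources used here.

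Counts of wells A12 to D12 were summed per plate and compared between genotypes with edgeR 4.0.16 (R 4.3.3), using trimmed-mean scaling, its default filter and the quasi-likelihood test. Genes were called at an adjusted p (Benjamini-Hochberg) below 0.05 when the log2 fold change also exceeded 1 in size, and SEs were taken as the log2 fold change over the square root of F. DESeq2 1.42.0 and limma 3.58.1 were alternatives, and further ones changed scaling, filters, wells and plates. The steps were tested on simulated data. The study sorted in 3 independent experiments, and each plate was taken as 1 replicate, so p-values measure the spread between plates, each holding pooled pups.

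Genes were named as the 10 of smallest p per direction with non-overlapping plates when fewer were called, 8 per direction in the low-expressed class, and members of the lists. Members and lists were chosen with earlier results of these data known. List medians use fitted values, and genes at 0 in a genotype lie beyond their list's median either way. A gene at 0 in a genotype was set to 3 counts over the group for a bound. Positions come from Gencode M21 and promoters from RefSeq, both on GRCm38, and strings of letters were searched on both strands.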

Additional observations from a re-analysis of the deposited data

Results flagged for a closer look

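The number of genes in a well thinned to 100000 counts set 2 wells apart from the other 3 of their plate. It was 6972 in A12 of CA-ERBB2 plate 3 and 2213 in D12 of Control plate 2, in each case by a gap to the next well larger than Dixon's 95% critical value for 4 samples. Chance alone flags about 1 in 20 groupings, and 30 groupings were tested. These wells also had the highest macrophage marker sums of the 24, at 12644 and 11421 CPM, and the lowest median correlations with the other wells, at 0.55 and 0.31. The part of those cells in the result was not tested.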

How the results depend on the processing

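The count of 0 genes called between genotypes became 137 with DESeq2, 5 with no filter on low counts and 4 with wells weighted equally (limma), and it stayed at 0 without each plate, each well position, with another scaling, a stricter filter or thinned counts. It was also 0 under a pair of alternatives chosen after seeing the data, without D12 of Control plate 2 and with only the wells holding transcripts of both sexes. For wells A12 to D12 against the others, DESeq2 called 219 genes. For the difference of the genotype effect it called 196, no filter gave 2, and leaving out 1 plate gave 0 to 1, the 1 being without Control plate 2. Wells with Xist and Y transcripts numbered 13 at 50 CPM. With the replicate number as a block, 0 genes were called and 589 had an unadjusted p under 0.05. Same-numbered plates deviated together with correlations of 0.21, 0.13 and 0.01, and plates of different number with correlations from -0.24 to 0.12. The numbers were not taken as pairs, and a batch shared by same-numbered plates was not tested.

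Signs turned for Anxa4 with limma (0.00040), for Cib2 without well A12 (0.017) and for Bglap, which ranged from -1.51 without CA-ERBB2 plate 3 to 5.05 without Control plate 2. The cause was not tested. Of the 67 named genes tested, 27 passed with DESeq2. A class read in under 1% of other wells held 0 genes and gave no value. With 3 plates of 4 wells per genotype, genes carried by 1 well had wide errors.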
